A study of Mus musculus with 12 samples.

Results

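The integrin alpha and beta chains described here are the products of 8 genes, Itgae, Itgb7, Itga4, Itgal, Itgb1, Itgb2, Itga6 and Itgav. Every probe set whose symbol in the platform's annotation was one of these genes was taken, 15 of the 12422 probe sets that were not controls. Itga4 and Itgav had 3 probe sets each, Itgae, Itgb7 and Itgb1 had 2 each, and Itgal, Itgb2 and Itga6 had 1 each. Thymocytes were profiled on 12 Affymetrix mouse arrays, 4 for each of 3 groups numbered 1 to 4 in their titles. The cells were taken on day 6 of RTOC, short for reaggregate thymic organ culture, where thymocytes grow among thymic stroma. HY_high and HY_low thymocytes carried the HY T cell receptor, which sees a male-specific peptide on MHC class I, and were cultured with the Smcy peptide at 1e-05 M and 1e-07 M. OT1 thymocytes carried the OT1 receptor, which sees a peptide of ovalbumin on MHC class I, and the labels name no added peptide. The titles of HY_high and HY_low also carry the unexplained letters aa and ab, so dose and whatever these letters mark cannot be told apart. Against OT1, receptor and peptide changed together. Strain, age and sex of the animals, and whether replicates came from separate cultures, are not given in the sources used here, so the p-values cover array-to-array spread alone, which may be technical.

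Integrins are adhesion receptors made of an alpha and a beta chain, and the pairing of the chains sets which ligand is bound. Itgae encodes the alpha E chain, also called CD103, which pairs with the beta 7 chain encoded by Itgb7 and binds E-cadherin on epithelial cells. This pair is a hallmark of intraepithelial lymphocytes of mucosal tissue and is also found on CD8 lineage thymocytes. Itga4 encodes the alpha 4 chain, which pairs with the products of Itgb1 or Itgb7 and binds VCAM-1, fibronectin or MAdCAM-1. Itgal and Itgb2 encode the chains of LFA-1, the leukocyte receptor for ICAM ligands. Itga6 encodes a laminin receptor chain, and Itgav the alpha v chain, whose heterodimers bind matrix ligands with an RGD motif and release active TGF-beta from its latent form.

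Start-site sequences from RefSeq (build GRCm38.p6) were at hand for 4 of the 8 genes, each from 250 bases before to 50 bases after the start of the gene. Those of Itgav and Itga4 are shown because a probe set of each was higher in HY_high than in both other groups within all 4 array numbers. That of Itgb7 is shown as the beta chain of the mucosal receptor. Capitals mark matches, on either strand, to any of 5 motifs. The RUNX core was searched as TGTGGT. The Sp1 box was searched as GGGCGG. The ETS core was searched as CGGAAG. The TATA box was searched as TATAAA. The SMAD box was searched as CAGACA.
Itgav, chr2:83724147-83724446, + strand: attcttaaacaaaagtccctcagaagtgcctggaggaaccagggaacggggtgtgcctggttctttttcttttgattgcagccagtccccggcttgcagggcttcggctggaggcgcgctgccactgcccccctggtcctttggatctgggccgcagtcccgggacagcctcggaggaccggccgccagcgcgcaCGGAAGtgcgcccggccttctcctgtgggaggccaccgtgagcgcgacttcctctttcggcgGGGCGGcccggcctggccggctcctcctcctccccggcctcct
Itga4, chr2:79255176-79255475, + strand: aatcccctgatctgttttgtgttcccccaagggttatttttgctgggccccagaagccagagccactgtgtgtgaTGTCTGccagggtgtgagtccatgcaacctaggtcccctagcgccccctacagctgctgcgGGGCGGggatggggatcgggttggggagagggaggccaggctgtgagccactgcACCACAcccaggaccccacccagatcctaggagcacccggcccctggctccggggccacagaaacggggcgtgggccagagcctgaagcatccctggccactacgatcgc
Itgb7, chr15:102231886-102232185, - strand: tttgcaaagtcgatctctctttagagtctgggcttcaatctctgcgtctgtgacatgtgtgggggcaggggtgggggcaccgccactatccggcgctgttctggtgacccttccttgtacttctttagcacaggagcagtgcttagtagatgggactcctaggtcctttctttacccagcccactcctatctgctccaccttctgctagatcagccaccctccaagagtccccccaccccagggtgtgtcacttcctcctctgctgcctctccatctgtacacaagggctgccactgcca
The Itgav window held 1 Sp1 box and 1 ETS core, and the Itga4 window 1 Sp1 box, 1 RUNX core and 1 SMAD box. In the Itgb7 window 0 of the 5 motifs had a match. Of the 32851 start-site windows of this length in the table, 35.7% held the Sp1 box, 16.9% the ETS core, 16.8% the RUNX core, 21.0% the SMAD box and 13.6% the TATA box. The CpG count was 24 for Itgav, 10 for Itga4 and 5 for Itgb7, where the median of all windows was 7. Binding of factors was not measured, and these matches describe letters alone.

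The deposited values were linear intensities. Of all values 15.3% sat at the minimum of 1, and array medians ran from 3.33 to 3.97. The number of arrays limits the precision. Arrays with the same number resembled each other across groups, as described with the processing, so each comparison is given with and without the number as a block. T cell markers were present, 8 of 13 on the array being above 8 on all 12 arrays. Their summed intensity ran from 1451 to 2529 in HY_high, from 2868 to 4218 in HY_low and from 2885 to 3523 in OT1. Cd8b1, the CD8 beta chain, was near the floor in HY_high, where it averaged 4.52 (geometric mean), against 644 in HY_low and 693 in OT1. Thy1 and Cd8a were at 234 and 157 in HY_high, 555 and 339 in HY_low and 541 and 340 in OT1. Cd3e, Cd3d and Cd3g, chains of the CD3 complex, had geometric means of 48.0, 98.3 and 231 in HY_high. They were at 57.2, 101 and 273 in HY_low and at 41.5, 87.3 and 184 in OT1. The summed markers of thymic epithelium, 10 on the array and 0 above 8 on all arrays, ran from 35.7 to 46.1 in HY_high, from 30.9 to 48.8 in HY_low and from 32.8 to 64.1 in OT1. Epcam, Krt5 and Foxn1, which define that epithelium, had highest values of 3.31, 4.14 and 5.47 on any array. Of the 10 markers 3 passed 8 on some array, Ly75 reaching 34, Krt8 11.3 and Cdh1 11.1. In RNA from mixed cells, fewer cells of a type and less RNA per cell cannot be told apart.

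Of the 15 integrin probe sets, 14 passed the filter on dim values, which asked for a mean above 1.76, and the remaining 1, an Itgav probe set, did not. Among all 15, 6 lay above 8 on every array, 4 on some arrays and 5 on none. The 6 belonged to Itgae, Itgb7, Itgb1, Itgb2 and Itgav. Probe sets with _f_ in their name can read several related sequences, those with _r_ or _i_ were built with relaxed rules, and levels are therefore compared between groups and not between probe sets.

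**Figure D1:**
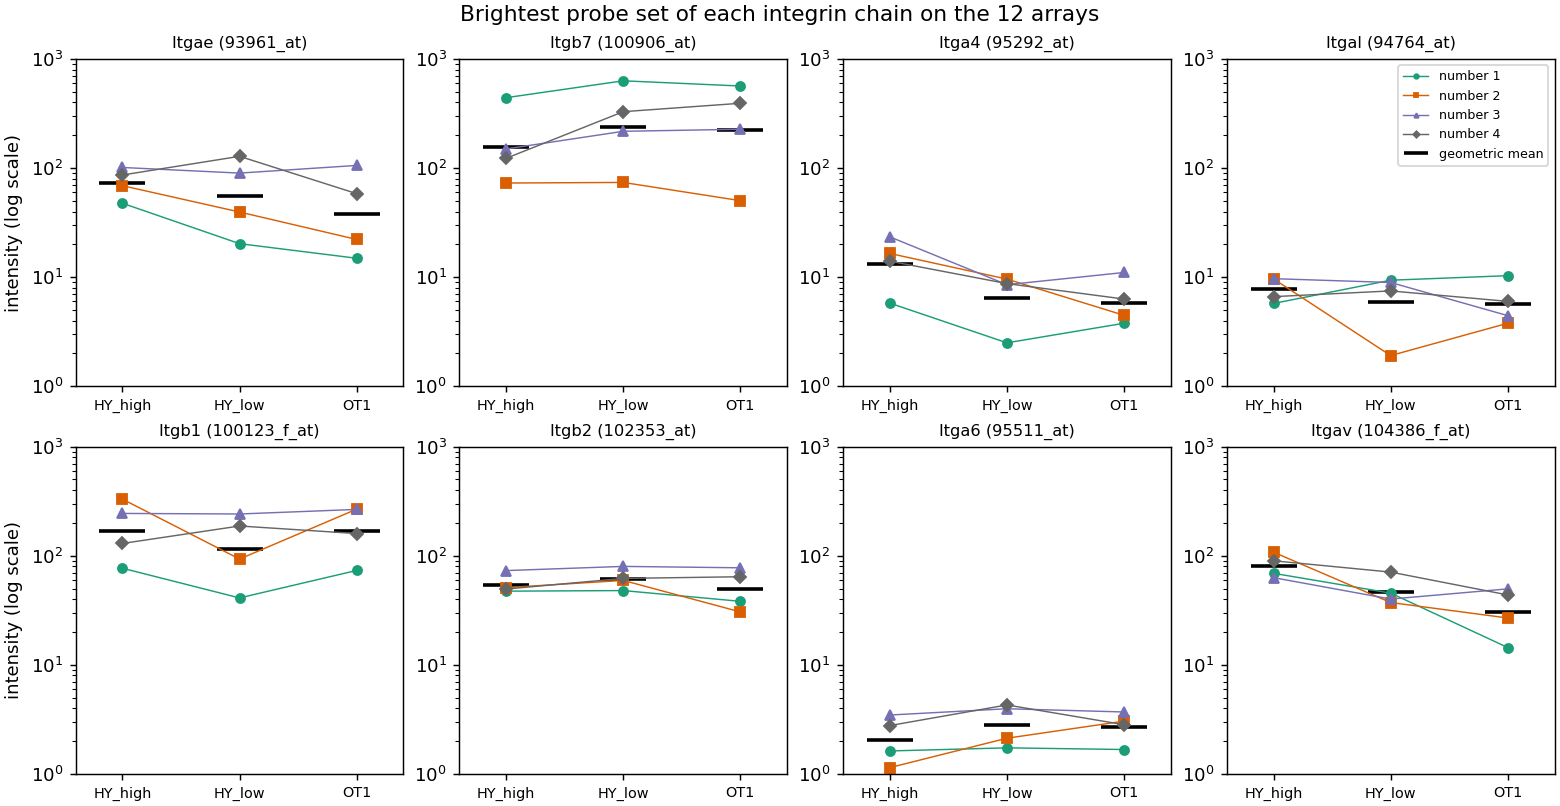
Intensity (vertical axis, log scale) of the brightest probe set of each of the 8 integrin genes on the 12 arrays, by group (horizontal axis). Points joined by lines are arrays of the same number, and bars are geometric means of 4 arrays. Itgav lay between 62.9 and 108 in HY_high, above its range of 14.4 to 49.7 in OT1, while the groups overlapped for the other 7 genes.

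In HY_high against HY_low, which changes the peptide dose as labelled, 0 of the 14 tested integrin probe sets passed an adjusted p of 0.05 by limma, with or without the number as a block. Over all 8695 tested probe sets 0.0230% passed, or 0.345% with the block. An unadjusted p under 0.05 was found for 0 of the 14, and for 3 with the block, where the share over all tested probe sets was 2.96% and 11.1%. Of the 14 log2 differences 9 were above 0 and 5 below, with a median of 0.35 against 0.01 over all tested probe sets. Itga4 (95292_at) and Itgav (104386_f_at) were higher in HY_high within all 4 numbers, 2 of 14 where 9.81% of all tested probe sets were. Lower within all 4 were the brighter Itgb7 probe set, Itgb2 and Itga6, 3 of 14 where the share was 9.76%.

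In HY_high against OT1, 0 of the 14 passed by limma and 1 did with the number as a block, an Itgav probe set that was higher in HY_high. Over all tested probe sets 0.173% passed without the block, and 1.36% with it, 1.13% being higher in HY_high. Unadjusted p-values under 0.05 were found for 1 of 14, or 4 with the block, where the shares of all tested probe sets were 4.08% and 11.7%. Of the 14 differences 9 were above 0 and 5 below (median 0.45 against 0.02 over all tested probe sets). The groups did not overlap for 1 of the 14, the same Itgav probe set, where 1.52% of all tested probe sets were higher without overlap. Within all 4 numbers 3 of the 14 were higher (Itga4 95292_at, Itgav 104386_f_at and Itgb1 100124_r_at) and 2 lower (Itgb7 162193_f_at and Itga6), where the shares were 10.4% and 8.74%.

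In HY_low against OT1, 0 of the 14 passed with or without the block, where 0.0230% and 0.0920% of all tested probe sets did, and 0 had an unadjusted p under 0.05 in either fit (2.65% and 8.37% of all). Within all 4 numbers 1 of the 14 was higher, Itga4 102655_at, and 0 were lower, where the shares were 9.73% and 7.38%. Differences above 0 were 11 in number and those below 0 were 3, with a median of 0.20 against 0.01 over all tested probe sets. HY_high against OT1 and HY_low against OT1 share the 4 OT1 arrays, and the 2 HY_high comparisons share the HY_high arrays, so counts of the 3 comparisons are not independent.

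**Figure D2:**
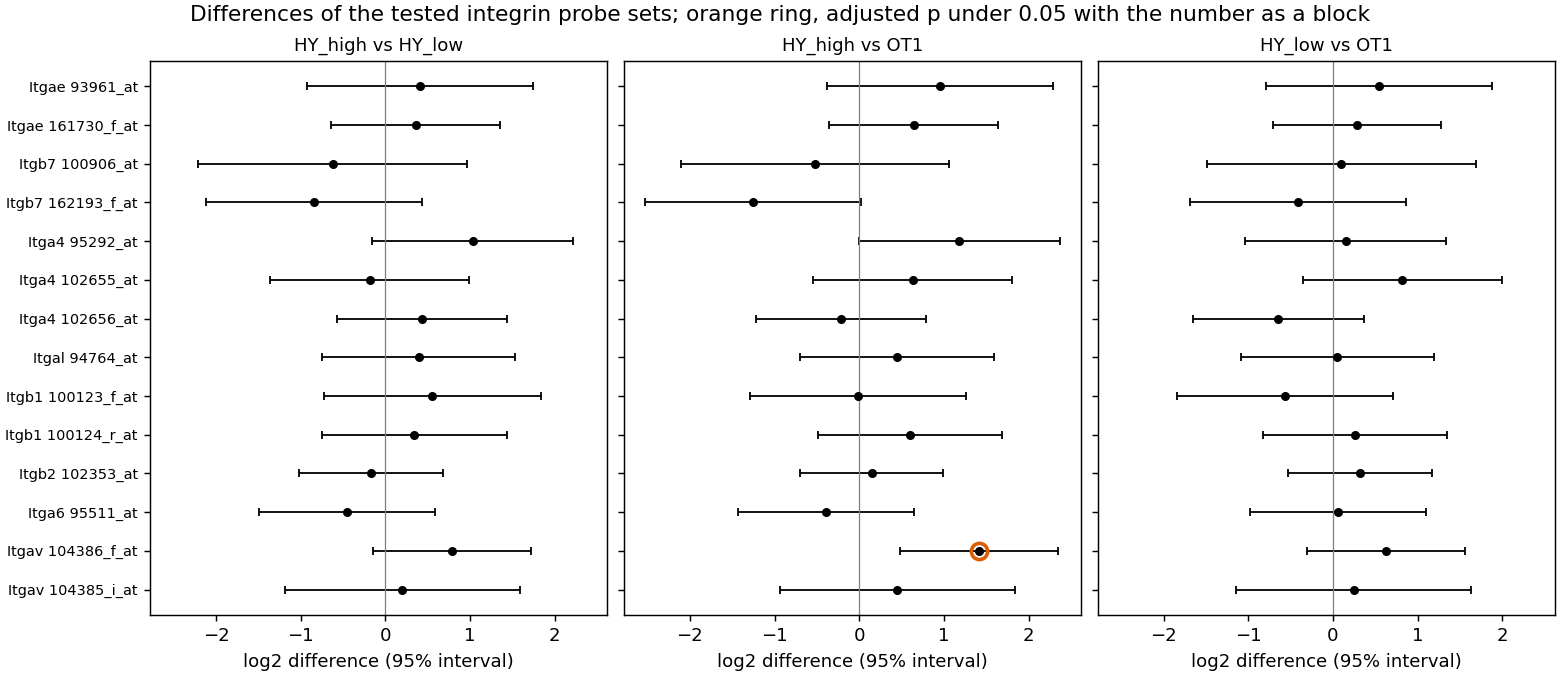
Log2 differences (horizontal axis) of the 14 tested integrin probe sets (rows) in the 3 comparisons, with 95% intervals from the limma fit without the block. The ring marks the 1 difference with an adjusted p under 0.05 once the array number was a block, Itgav 104386_f_at in HY_high against OT1.

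Itgae, the alpha E chain, had a geometric mean of 73.3 in HY_high, 55.2 in HY_low and 37.8 in OT1 on its brighter probe set (93961_at). HY_high arrays 1 to 4 were at 47.6, 69.0, 101 and 86.5. In HY_low they were at 20.3, 39.6, 90.1 and 128, and in OT1 at 14.9, 22.2, 106 and 58.4. Arrays 1 and 2 were low in HY_low and OT1 and less so in HY_high, and all 3 groups overlapped. The log2 difference of HY_high from OT1 was 0.95 ± 0.63 (SE, n = 4 per group, limma adjusted p = 1, and 0.159 once blocked). Its 95% interval, not adjusted for the number of probe sets tested, was -0.38 to 2.29 without the block and 0.32 to 1.59 with it. Within numbers 1 to 4 the difference was 1.68, 1.64, -0.06 and 0.57. Against HY_low the difference of HY_high was 0.41 ± 0.63 (adjusted p = 1, and 0.645 once blocked). HY_low differed from OT1 by 0.55 ± 0.63 (adjusted p = 1, and 0.667 once blocked).

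The second Itgae probe set (161730_f_at) gave differences of the same sign. It read 15.7, 44.4, 24.5 and 19.5 on HY_high arrays 1 to 4. On HY_low arrays it read 12.9, 20.8, 13.3 and 34.3, and on OT1 arrays 9.05, 18.5, 15.7 and 21.3. The 3 groups overlapped. Its log2 difference was 0.36 ± 0.47 in HY_high against HY_low and 0.64 ± 0.47 in HY_high against OT1 (limma adjusted p = 1 for both, and 0.705 and 0.433 once blocked).

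Itgb7, which encodes the beta chain that pairs with alpha E or alpha 4, was read by a bright probe set (100906_at) and a dim one. On the bright one HY_high arrays 1 to 4 were at 443, 73.0, 150 and 123. HY_low arrays were at 632, 73.9, 218 and 329, and OT1 arrays at 566, 50.3, 227 and 393. Array 1 was the highest and array 2 the lowest in each group, and the groups overlapped. The geometric mean was 156 in HY_high, 241 in HY_low and 225 in OT1. HY_high differed from HY_low by -0.62 ± 0.75 (SE, n = 4 per group, limma adjusted p = 1, and 0.402 once blocked), and within the numbers by -0.51, -0.02, -0.54 and -1.42. The 95% interval, not adjusted for the number of probe sets tested, was -2.21 to 0.96 without the block and -1.17 to -0.0707 with it. The difference of HY_high from OT1 was -0.52 ± 0.75 (adjusted p = 1, and 0.456 once blocked), or -1.24 to -0.0787 when arrays were left out, with 0.54 within number 2 and values below 0 within the other numbers.

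The dimmer Itgb7 probe set (162193_f_at) also had its lowest geometric mean in HY_high, 4.69, against 8.41 in HY_low and 11.2 in OT1. HY_high arrays read 5.33, 2.89, 3.59 and 8.72. HY_low arrays read 15.2, 2.05, 10.2 and 15.8, and OT1 arrays 8.15, 12.8, 15.7 and 9.59. Only HY_high array 4 was above 8 in its group, and HY_low array 2 was the lowest of all 12. The difference of HY_high from OT1 was -1.26 ± 0.60 (limma adjusted p = 1, and 0.297 once blocked). Its 95% interval, not adjusted for the number of probe sets tested, was -2.53 to 0.02 without the block and -2.29 to -0.22 with it. With intensities under 8 set to 8 the difference was -0.45.

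Itga4, the alpha 4 chain, had its highest geometric mean in HY_high on the probe set 95292_at, with 13.3 against 6.50 in HY_low and 5.86 in OT1. HY_high arrays 1 to 4 read 5.78, 16.5, 23.4 and 14.0. HY_low arrays read 2.50, 9.60, 8.53 and 8.73, and OT1 arrays 3.78, 4.47, 11.04 and 6.30. HY_high arrays 2 to 4 lay above all HY_low and OT1 arrays, while HY_high array 1 lay among them. The log2 difference was 1.03 ± 0.56 from HY_low (SE, n = 4 per group, limma adjusted p = 1, and 0.301 once blocked) and 1.18 ± 0.56 from OT1 (adjusted p = 1, and 0.138 once blocked). Within numbers 1 to 4 HY_high exceeded HY_low by 1.21, 0.78, 1.46 and 0.68 and OT1 by 0.61, 1.88, 1.09 and 1.15.

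The remaining Itga4 probe sets were dim and did not show the same order. On 102655_at the geometric means were 3.74 in HY_high, 4.25 in HY_low and 2.41 in OT1. On 102656_at they were 2.85, 2.11 and 3.30 in the same order of groups. Neither lay above 8 on any array, and their differences of HY_high from HY_low were -0.19 and 0.43.

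Itgb1 encodes the beta chain that pairs with alpha 4, alpha 6 or alpha v among the chains measured here. Its brighter probe set (100123_f_at) read 76.8, 330, 244 and 130 on HY_high arrays 1 to 4. HY_low arrays read 41.0, 93.2, 241 and 187, and OT1 arrays 73.3, 267, 266 and 160. Array 1 was the lowest in each group. The geometric mean was 168 in HY_high, 115 in HY_low and 170 in OT1, and HY_low was lower than OT1 within numbers 1, 2 and 3. HY_high differed from HY_low by 0.55 ± 0.61 and from OT1 by -0.01 ± 0.61 (limma adjusted p = 1 for both, and 0.509 and 0.993 once blocked). The second probe set (100124_r_at) had geometric means of 20.7 in HY_high, 16.3 in HY_low and 13.6 in OT1, with a difference of 0.60 ± 0.52 between HY_high and OT1 (adjusted p = 1, and 0.431 once blocked).

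Itgav, the alpha v chain, was the member with a difference past the threshold, on the probe set 104386_f_at and only with the number as a block. HY_high arrays 1 to 4 were at 69.0, 108, 62.9 and 89.9. HY_low arrays were at 45.4, 37.2, 40.0 and 70.8, and OT1 arrays at 14.4, 26.8, 49.7 and 43.7. Every HY_high array lay above every OT1 array, while HY_low array 4 lay above HY_high arrays 1 and 3. The geometric mean was 80.5 in HY_high, 46.8 in HY_low and 30.3 in OT1. HY_high exceeded OT1 by a log2 difference of 1.41 ± 0.44 (SE, n = 4 per group), or 2.66-fold, with a 95% interval of 0.48 to 2.35. The limma adjusted p was 0.566, and 0.0259 with the block (± 0.30). Within numbers 1 to 4 the difference was 2.26, 2.005, 0.34 and 1.04.

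That call was lost in the block fit without the 3 arrays of number 1 (difference 1.13, adjusted p = 0.101), of number 2 (1.21, 0.152) or of number 4 (1.54, 0.0695), and with intensities under 8 set to 8 (1.41, 0.148). It held without number 3 (1.77, 0.0200). HY_high exceeded HY_low by 0.78 ± 0.44 (limma adjusted p = 1, and 0.351 once blocked), and HY_low exceeded OT1 by 0.63 ± 0.44 (adjusted p = 1, and 0.602 once blocked). HY_low thus had a mean between those of HY_high and OT1, and neither of its differences passed.

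The other Itgav probe sets were dim. On 104385_i_at, which was made from the same accession as the bright one, the geometric means were 3.56 in HY_high, 3.10 in HY_low and 2.61 in OT1 (log2 difference of HY_high from OT1 0.45 ± 0.66, limma adjusted p = 1, and 0.821 once blocked). The untested 98366_at read 1.53 in HY_high, 1.17 in HY_low and 2.35 in OT1, the highest mean being in OT1. The Itgav difference thus rests on 1 of 3 probe sets, of a type that can read related sequences.

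Summed marker levels of other cells are given beside it. Markers of macrophages and dendritic cells, 15 on the array, summed to 43.8 to 54.8 in HY_high, 34.9 to 77.6 in HY_low and 36.6 to 52.1 in OT1, and 6 of the 15 passed 8 on some array. Itgam, Adgre1 and Marco had highest values of 4.05, 3.11 and 1.2, against 18.5 for Apoe, 13.2 for Lyz2, 12.9 for Cd14, 11.3 for Csf1r, 11.3 for Cd74 and 8.37 for C1qb. The differences of Apoe and Lyz2 between HY_low and OT1 were 2.15 ± 0.62 and 1.98 ± 0.59 (limma adjusted p = 1 for both), and those between HY_high and OT1 were 0.15 and 0.77. Endothelial markers, 9 in number with 3 above 8 on some array, summed to 36.6 to 52.7 in HY_high, 33.5 to 57.6 in HY_low and 37.3 to 42.4 in OT1. Fibroblast markers, 9 in number with 6 above 8 on some array, summed to 207 to 423 in HY_high, 348 to 782 in HY_low and 477 to 821 in OT1. Most of that sum was Thy1, which T cells also express, while Pdgfrb and Sparc stayed at or below 2.38 and 2.94. The collagen gene Col1a2 lay between 14.4 and 37.0 on all arrays, with geometric means of 17.9 in HY_high, 26.5 in HY_low and 28.7 in OT1, and Col1a1 reached 25.0. Col3a1, another collagen gene, had the same order of groups as Itgav, with 6.81 in HY_high, 4.62 in HY_low and 2.14 in OT1. Its HY_high arrays lay above all OT1 arrays, as was so for 1.52% of all tested probe sets. The difference was 1.67 ± 0.55 (limma adjusted p = 0.643, and 0.122 once blocked). The part of such cells in the Itgav difference was not tested.

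Itgb2, the beta chain of LFA-1, was bright on its single probe set and varied little in HY_high and HY_low. HY_high arrays read 47.3, 51.0, 73.1 and 49.5. HY_low arrays read 47.9, 59.4, 79.8 and 61.9, and OT1 arrays 38.2, 30.5, 77.5 and 64.1. Array 3 was the highest in each group, and the groups overlapped. HY_high differed from HY_low by -0.17 ± 0.40 and from OT1 by 0.15 ± 0.40 (limma adjusted p = 1 for both, and 0.831 and 0.856 once blocked). The 95% intervals ran from -1.02 to 0.67 and from -0.70 to 0.99.

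Itgal, the alpha chain that pairs with the product of Itgb2, was dim on its single probe set. HY_high arrays read 5.74, 9.64, 9.69 and 6.63. HY_low arrays read 9.38, 1.91, 8.94 and 7.48, and OT1 arrays 10.3, 3.78, 4.44 and 6.00. The difference of HY_high from OT1 was 0.44 ± 0.54 (limma adjusted p = 1, and 0.772 once blocked). Itga6, the laminin receptor chain, lay between 1.14 and 4.28 on all 12 arrays, with geometric means of 2.05 in HY_high, 2.81 in HY_low and 2.70 in OT1, near the bottom of the scale.

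As for most probe sets on the array, the array number held a larger share of the variation of the integrin probe sets than the group did. When the sum of squares of the log2 intensities was split into group, number and rest, the number held more than the group in 12 of the 14 tested probe sets (85.7%), close to the 84.0% of all tested probe sets. It held over 50% in 8 of the 14 and under 50% in 6, where 53.3% of all tested probe sets had over 50%. For the bright Itgb7 probe set 86.9% lay between numbers and 5.38% between groups, and for the bright Itgae probe set 70.1% and 15.6%. The bright Itgav probe set was the other way round, with 58.3% between groups and 16.8% between numbers. A group share at least as large was found in 1.74% of all tested probe sets. The medians over all tested probe sets were 10.7% between groups and 52.8% between numbers.

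**Figure D3:**
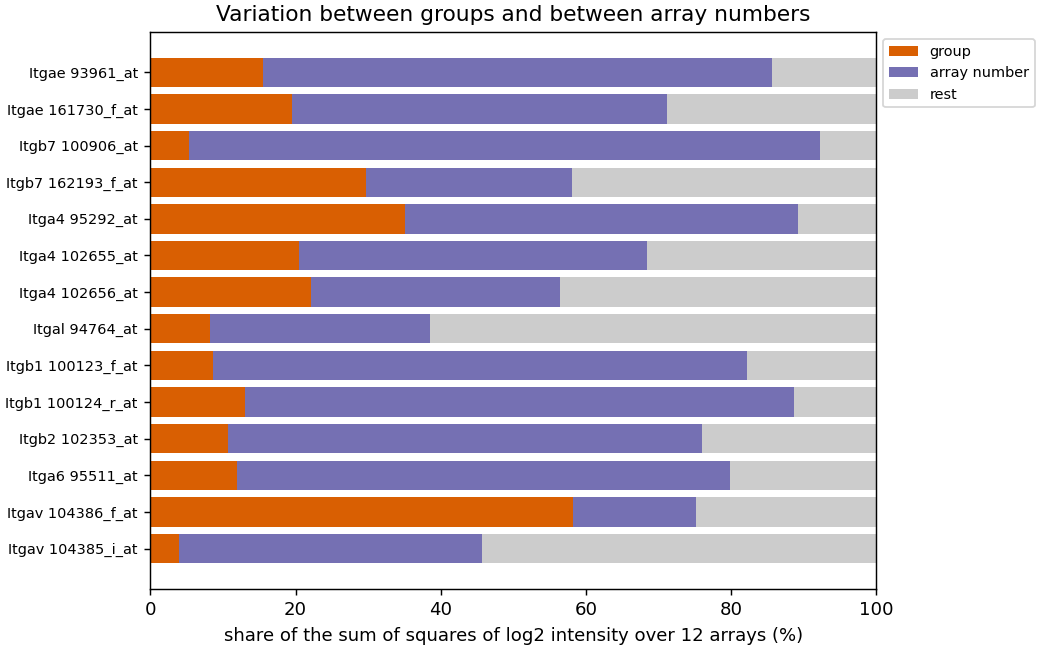
Share of the sum of squares of log2 intensity over the 12 arrays (horizontal axis, percent) that lay between groups, between array numbers and in the rest, for the 14 tested integrin probe sets (rows). The number held 86.9% for Itgb7 100906_at and the group held 58.3% for Itgav 104386_f_at.

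Arrays of 1 number also shared some other measures, but not all. Gapdh control probe sets at the 3' and 5' ends of the transcript had a log2 ratio that ran from 5.60 to 6.26 on arrays numbered 2, where Itgb7 was lowest (50.3 to 73.9), and from 2.95 to 3.27 on arrays numbered 4 (Itgb7 123 to 393). It ran from 4.57 to 4.87 on arrays numbered 1 (443 to 632) and from 4.69 to 5.48 on those numbered 3 (150 to 227). For actin control probe sets the same ratio was not highest on array 2 in any group. The actin ratio of array 2 was the lowest of its group in HY_low (2.02) and HY_high (2.03). In OT1 it was 2.99 on array 2, below the 3.39 of array 3. The 9 B cell markers on the array summed to 534 to 1016 on arrays numbered 1, 92.8 to 167 on those numbered 2, 192 to 246 on those numbered 3 and 229 to 352.5 on those numbered 4. The immunoglobulin heavy chain gene Ighm, which made up most of that sum, was at 461, 126, 148 and 186 on HY_high arrays 1 to 4, 593, 59.4, 206 and 298 on HY_low arrays and 987, 69.7, 178 and 289 on OT1 arrays. Cd79a and Cd22, which define B cells, had highest values of 6.06 and 3.69. Cd79b, a chain of the B cell receptor complex, was brighter and lowest on array 2 of each group. It read 42.9, 12.6, 25.5 and 17.9 on HY_high arrays 1 to 4, 18.3, 4.32, 14.5 and 24.4 on HY_low arrays and 11.6, 3.86, 23.8 and 15.9 on OT1 arrays. Pax5 and Ms4a1 reached 11.3 and 9.77. Ighm and Itgb7 were highest on arrays numbered 1 and lowest on those numbered 2 in every group, and the part of B cells or RNA quality in the Itgb7 values was not tested.

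**Figure D4:**
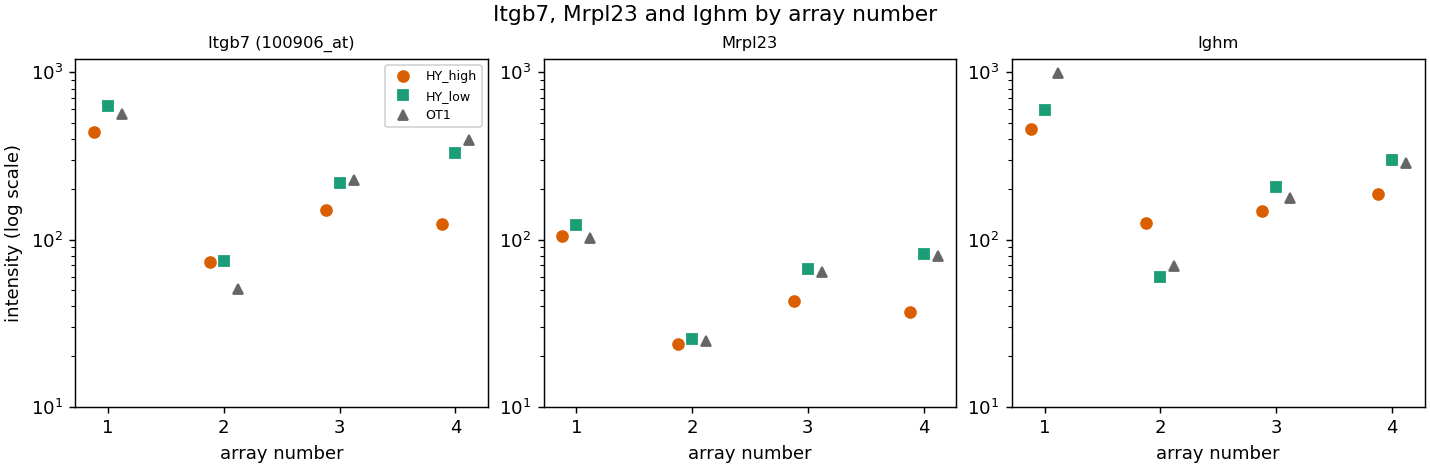
Intensity (vertical axis, log scale) of Itgb7 100906_at, of Mrpl23, the gene most like it over the 12 arrays, and of Ighm, by array number (horizontal axis) and group (symbol). Each of the 3 genes was highest on arrays numbered 1 and lowest on those numbered 2.

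The genes most like each bright member were taken by Pearson's r of log2 intensity over the 12 arrays, among 3595 or 3596 tested probe sets of other genes with a geometric mean of at least 8. The arrays share numbers and groups, so these values are descriptions. For Itgb7 they were Mrpl23, a mitochondrial ribosomal protein (r = 0.99), Phc2 (0.98) and Lpcat3 (0.97). For Itgb1 they were Hsph1, a heat shock protein (0.94), Atp5j (0.94) and Rasa3 (0.94). Itgb2 was most like Cd3g, a chain of the CD3 complex (0.94), Rala (0.92) and Ermp1 (0.90), and Itgae most like Vps26c (0.96), Phf23 (0.93) and Rrn3 (0.93). Itgav was most like AW112010 (0.94), Ccdc50 (0.88) and Cd160 (0.88), a receptor of intraepithelial lymphocytes and NK cells. With the mean of each number subtracted, these 3 had r of 0.94, 0.94 and 0.90 with Itgav. After the same step r was 0.91 for Mrpl23 with Itgb7, 0.92 for Vps26c with Itgae and 0.83 for Cd3g with Itgb2. The other genes of these members were lower. With Itgb7 r was 0.85 for Phc2 and 0.84 for Lpcat3, and with Itgae 0.84 for Phf23 and 0.77 for Rrn3. With Itgb2 it was 0.79 for Rala and 0.70 for Ermp1. With Itgb1 r was 0.86 for Hsph1, 0.87 for Atp5j and 0.95 for Rasa3.

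**Figure D5:**
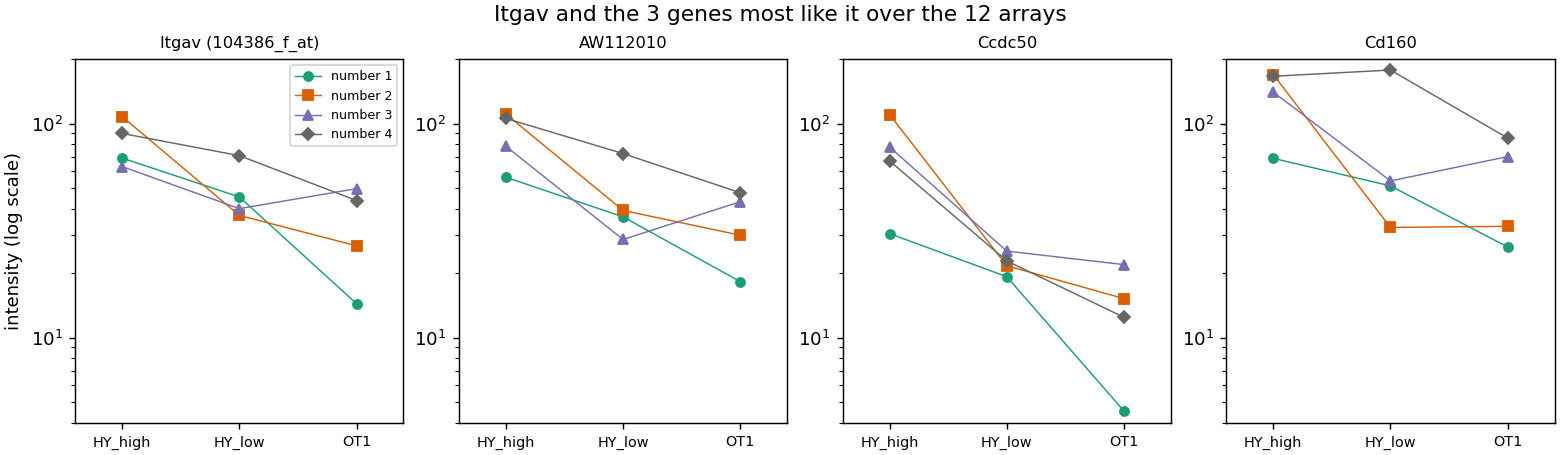
Intensity (vertical axis, log scale) of Itgav 104386_f_at and of AW112010, Ccdc50 and Cd160 by group (horizontal axis), lines joining arrays of the same number. All 4 genes had their highest geometric mean in HY_high and their lowest in OT1. AW112010, Ccdc50 and Cd160 were chosen for their likeness to Itgav on these arrays, so the shared order is no separate evidence.

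Cd160 read 68.8, 169, 140 and 166 on HY_high arrays 1 to 4, against 51.1, 32.7, 54.0 and 178 on HY_low arrays and 26.5, 33.1, 70.1 and 85.5 on OT1 arrays. It was higher in HY_high than in OT1 by 1.42 ± 0.54 (SE, n = 4 per group, limma adjusted p = 0.942, and 0.0305 once blocked). Like Itgav it passed only with the block. Cd160 was named for its likeness to Itgav on these same arrays, so its difference is no separate evidence. Cd160 belongs to a list of 14 genes of intraepithelial lymphocytes, of which 2 were higher in HY_high than in OT1 by limma and 6 with the block, and 0 were lower in either fit. Over all tested probe sets 0.173% passed by limma in either direction, and 1.13% were higher with the block. The median log2 difference of the list was 1.71 there, 1.02 in HY_high against HY_low and 0.33 in HY_low against OT1, beside 0.02, 0.01 and 0.01 over all tested probe sets. Of the 14 differences 13 were above 0 in HY_high against OT1, and 13 in HY_high against HY_low. Gzmb went the other way against OT1, with 35.4 in HY_high and 63.9 in OT1 (-0.85 ± 0.60). Ccr9 did so against HY_low, with 7.96 in HY_high and 12.8 in HY_low (-0.69 ± 0.78). Gzma was dim and nearly level, with 3.71 in HY_high, 3.62 in HY_low and 3.04 in OT1. In HY_high against HY_low 0 of the 14 passed by limma and 2 with the block, where 0.0230% and 0.345% of all tested probe sets did. In HY_low against OT1 0 did in either fit (0.0230% and 0.0920% of all). The 2 limma calls were Fcer1g, an Fc receptor adaptor (2.82 ± 0.49, adjusted p = 0.0229), and Cd244a, a SLAM family receptor (2.54 ± 0.49, adjusted p = 0.0406). Fcer1g had geometric means of 8.27 in HY_high, 1.34 in HY_low and 1.17 in OT1, with 4 arrays at the minimum of 1. It passed the filter on dim values, set at 1.76, through HY_high alone, the only gene of the 14 to do so. It therefore had to differ between groups to be tested at all, and the size of its difference depends on that minimum. The chemokine gene Xcl1 had 2.55 ± 0.52 (adjusted p = 0.0657, and 0.00159 once blocked) and the checkpoint receptor gene Lag3 1.995 ± 0.51 (0.271, and 0.0489 once blocked). The list was drawn up with earlier results of these arrays known, so its direction is no separate evidence.

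Other integrin chains were near the bottom of the scale. Of the 10 on the array 6 were tested, and 0 passed in any comparison with or without the block. Their median log2 difference was -0.35 in HY_high against HY_low, -0.61 in HY_high against OT1 and -0.03 in HY_low against OT1. Among the possible beta partners of Itgav, Itgb3 had geometric means of 1.48 in HY_high, 3.73 in HY_low and 2.44 in OT1, and Itgb5 had 3.19, 2.63 and 5.49 in the same order of groups. Itgb6 and Itgb8, also possible partners, had no probe set of their own in the annotation, and the brighter Itgb1 is described above. For Itgb5 the difference of HY_high from OT1 was -0.79 ± 0.55 (limma adjusted p = 1, and 0.618 once blocked).

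The ligands of these receptors were likewise dim in this RNA. Of 16 on the array 10 were tested and 0 passed in any of the 3 comparisons, in either fit. Icam2, a ligand of LFA-1, was above 8 on all arrays, with geometric means of 33.8 in HY_high, 37.4 in HY_low and 30.8 in OT1. Cdh1, which encodes E-cadherin, had 6.35, 7.32 and 8.29 in the same order of groups, and its differences did not pass (-0.21 ± 0.43 in HY_high against HY_low and -0.39 ± 0.43 in HY_high against OT1, limma adjusted p = 1 for both). Fn1, which encodes fibronectin, had the smallest p of the list in both comparisons with OT1. Its geometric means were 5.27 in HY_high, 5.72 in HY_low and 1.53 in OT1 (difference from OT1 1.79 ± 0.65 in HY_high, adjusted p = 0.835, and 1.91 ± 0.65 in HY_low, adjusted p = 1). The OT1 arrays, at 1 to 2.66, were near the lowest of the scale, while Fn1 reached 15.3 in HY_high and 10.9 in HY_low.

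Genes that activate integrins or carry their signals were brighter, and 0 of the 26 tested, of 29 on the array, passed in any comparison in either fit. Their median difference was -0.05 in HY_high against HY_low, 0.10 in HY_high against OT1 and 0.12 in HY_low against OT1. Lims1, an adaptor of the integrin-linked kinase, had geometric means of 48.9 in HY_high, 36.0 in HY_low and 30.6 in OT1 (0.67 ± 0.61 in HY_high against OT1, limma adjusted p = 1, and 0.191 once blocked). Skap2, an adaptor in integrin activation, had 10.5 in HY_high, 4.17 in HY_low and 8.43 in OT1, a difference of 1.33 ± 0.55 between HY_high and HY_low (adjusted p = 1, and 0.262 once blocked). Itgb1bp1, which binds the tail of the beta 1 chain, had 11.1, 8.09 and 15.6 in HY_high, HY_low and OT1 (-0.49 ± 0.43 in HY_high against OT1, adjusted p = 1). Talin, encoded by Tln1, the protein that links integrin tails to actin, had 179, 245 and 159 in that order of groups, with no difference past the threshold.

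In the TGF-beta pathway, which induces Itgae in T cells and whose ligand is released by alpha v integrins, 13 of 23 genes on the array were tested and 0 passed in any comparison in either fit. The median difference was 0.04 in HY_high against HY_low, -0.09 in HY_high against OT1 and -0.35 in HY_low against OT1. The signal transducer Smad2 had geometric means of 32.0 in HY_high and 21.7 in HY_low (difference 0.56 ± 0.41, limma adjusted p = 1, and 0.489 once blocked). Tgfb3, a ligand, had 3.12 in HY_high, 4.90 in HY_low and 8.39 in OT1 (-1.43 ± 0.57 in HY_high against OT1, adjusted p = 0.993, and 0.240 once blocked). The receptor genes Tgfbr1 and Tgfbr2 were too dim to be tested, with group means from 1.43 to 1.53 and from 1 to 1.16.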

How the data were processed

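Intensities on a linear scale, 12488 probe sets on 12 arrays, were used as deposited by the authors. The sources used here do not give how the authors corrected, summarised and scaled them. Left out were 66 control probe sets. Values were put on a log2 scale, and tests covered the probe sets with a mean above the 30th percentile (8695 of 12422). The 3 comparisons used 1 limma fit over all 12 arrays (limma 3.58.1, R 4.3.3, variance trend on intensity, 9 residual degrees of freedom), two-sided, with Benjamini-Hochberg adjustment over all tested probe sets and a threshold of 0.05.

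Arrays numbered alike in the titles deviated together from their group means (correlations of 0.34 to 0.59 in 12 pairs, against -0.40 to 0.16 in 36 other pairs). The data, not the labels, thus pair the arrays. Values called blocked come from a second fit with array number as a term, which leaves 6 residual degrees of freedom. The ± values and intervals are from the fit without the block unless stated, so they include the spread between array numbers.

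Gene names came from the platform's annotation. Of the 12422 probe sets 10833 had 1 gene, 396 several and 1193 none. For listed genes the probe set of highest mean was used. Of each list the text names genes among the 4 with the smallest p in a comparison, and for members of a geometric mean of at least 8 the 3 genes with the highest r. Icam2, Tgfbr1, Tgfbr2, Gzmb, Gzma and the genes named from the cell type marker lists fall outside that rule (Cdh1 is within it) and were chosen after their values were seen. Members and lists were chosen with earlier results of these data known.

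The limma fit was tested on simulated data for HY_high against HY_low with 8695 probe sets, of which 50 were changed at each of 4 sizes. It called 4% of those changed by a log2 value of 1, 38% of those at 2, 80% at 3 and 92% at 4. Among the unchanged probe sets 3 were called. The simulated noise was independent between arrays, with no shared array number and no minimum intensity. Only the fit without the block was simulated, so these rates do not describe the blocked fit. Alternatives were other normalization, filter, floor, pairing, variance trend, weights and sets of arrays.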

Additional observations from a re-analysis of the deposited data

Results flagged for a closer look

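In 3 of the 45 groups of 4 arrays examined (15 integrin probe sets in 3 groups), 1 array lay farther from the others than Dixon's 95% critical value for 4 samples allows, on the log2 scale. Chance flags about 1 group in 20 where the arrays of a group are exchangeable, which arrays paired by number are not. All 3 flags were in HY_low. Itga4 95292_at was at 2.50 on HY_low array 1, the other arrays of the group lying between 8.53 and 9.60. On the same array Itga4 102655_at was at 1.97, where the others lay between 5.11 and 6.01. Array 1 was also the lowest for both Itga4 probe sets in HY_high and in OT1, and 102655_at read 1.79 to 1.97 on the 3 arrays numbered 1, so these values follow the array number. Itgal 94764_at was at 1.91 on HY_low array 2, against 7.48 to 9.38 on the others. Without HY_low array 1 the HY_high minus HY_low difference of Itga4 95292_at was 0.57, and without HY_low array 2 that of Itgal was -0.15. The cause was not tested.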

How the results depend on the processing

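Under 31 alternatives per comparison the number of integrin probe sets past the threshold stayed at 0 in HY_high against HY_low and in HY_low against OT1. In HY_high against OT1 it was 1 with the replicate block, and 1 with the block and either scaling to one median, quantile normalization or without the arrays numbered 3. It was 0 without the block whenever 1 array, or the 3 arrays of a number, were left out, and 0 with the block without number 1, 2 or 4. That probe set was Itgav 104386_f_at, with block adjusted p of 0.0259, 0.0261 with scaling to one median and 0.0322 with quantile normalization. Its difference ran from 1.03 (array weights) to 1.77, and the lowest adjusted p without the block was 0.349. The block changed no other integrin call. Of the 42 differences 26 kept their sign under every alternative run, and the other 16, none past the threshold, turned under at least 1. With array weights the turned values were 0.23 for Itga4 102655_at and -0.0844 for Itgav 104385_i_at in HY_high against HY_low, 0.0658 for Itga4 102656_at and -0.0740 for Itgb2 102353_at in HY_high against OT1, -0.12 for Itgb7 100906_at in HY_low against OT1. With intensities under 8 set to 8, with or without the block, the turned value was 0.0801 for Itgb7 162193_f_at in HY_low against OT1. Blocked and without the arrays numbered 2, turned values were 0.28 for Itga4 102655_at, -0.26 for Itgal 94764_at and -0.41 for Itgav 104385_i_at in HY_high against HY_low, 0.0195 for Itga4 102656_at, -0.0497 for Itgb2 102353_at and -0.31 for Itgav 104385_i_at in HY_high against OT1, -0.0534 for Itgb7 100906_at, 0.33 for Itgb7 162193_f_at and -0.17 for Itga4 95292_at in HY_low against OT1. Blocked and without the arrays numbered 3, turned values were 0.0236 for Itgb1 100123_f_at in HY_high against OT1, -0.27 for Itgal 94764_at in HY_low against OT1. Blocked and without the arrays numbered 4, turned values were 0.0833 for Itgb1 100123_f_at in HY_high against OT1, -0.0376 for Itgal 94764_at and -0.12 for Itga6 95511_at in HY_low against OT1. The cause was not tested. The ranges of differences when arrays were left out follow for the 16. In HY_high against HY_low they were -0.0725 to 0.81 for Itgae 93961_at, -0.56 to 0.28 for Itga4 102655_at, -0.26 to 0.76 for Itgal 94764_at and -0.41 to 0.89 for Itgav 104385_i_at. In HY_high against OT1 they were -0.50 to 0.0387 for Itga4 102656_at, -0.42 to 0.36 for Itgb1 100123_f_at, -0.0804 to 0.37 for Itgb2 102353_at and -0.31 to 0.96 for Itgav 104385_i_at. In HY_low against OT1 they were -0.00519 to 0.46 for Itgae 161730_f_at, -0.62 to 0.67 for Itgb7 100906_at, -0.85 to 0.33 for Itgb7 162193_f_at, -0.17 to 0.61 for Itga4 95292_at, -0.27 to 0.59 for Itgal 94764_at, -0.0435 to 0.54 for Itgb1 100124_r_at, -0.17 to 0.29 for Itga6 95511_at and -0.20 to 0.60 for Itgav 104385_i_at. Over all tested probe sets the replicate block raised the calls to 30 in HY_high against HY_low, 118 in HY_high against OT1 and 8 in HY_low against OT1, where 2, 15 and 2 were called without it. Alternatives with whole numbers left out, or with the block and another choice together, were chosen after seeing the data. Dim probe sets have values near the lowest of the scale, which limits what their differences show.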
